A study of Canis lupus familiaris with 8 samples.

Results

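The ZFP36 family consists here of 3 genes, ZFP36, ZFP36L1 and ZFP36L2, picked by gene symbol from the 37952 genes of a table of exon read counts. The counts come from a dog kidney epithelial line, MDCK GII, seeded on collagen-coated silicone membranes and cultured overnight. In 4 wells the membrane was stretched by 18% along both axes of its plane and held so for 2 hours (stretch), and 4 wells served as controls. The labels name no allele or drug in either group. They describe the wells of a group as technical quadruplets spread at random over separate devices, so p-values measure the spread between wells of a single line and not between independent cultures. The title places the experiment in work on E-cadherin, EGFR and ERK signalling. For the ZFP36 family the comparison asks whether strain changes the messages of the proteins that clear short-lived, growth-factor-induced transcripts.

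ZFP36 proteins bind AU-rich elements in the 3′ untranslated regions of short-lived mRNAs through a pair of CCCH zinc fingers. They recruit the CCR4-NOT deadenylase, which removes the poly(A) tail, and decapping enzymes, exonuclease and exosome then degrade the message. ZFP36, also called tristetraprolin, is an immediate-early gene, induced quickly by growth factors and by inflammatory signals. Its protein is phosphorylated by the p38-activated kinase MAPKAPK2, which lets 14-3-3 proteins bind it and weakens decay. ZFP36L1 and ZFP36L2 share the zinc fingers and the decay activity and are known for roles in development and in blood cells. The counts report mRNA only, and neither the proteins nor their phosphorylation was measured.

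Each member has 2 exons on the minus strand, at coordinates that are identical in the deposited table and in the RefSeq annotation of the dog assembly UU_Cfam_GSD_1.0. ZFP36 lies on chromosome 1 from 114603453 to 114605590, with a first exon of 137 bases and a second of 1251 bases. ZFP36L1 lies on chromosome 8 from 42941809 to 42947345, with exons of 291 and 2822 bases. ZFP36L2 lies on chromosome 10 from 46805859 to 46810167, with exons of 344 and 3419 bases. No gene of the table overlaps ZFP36 or ZFP36L1. A long noncoding RNA, LOC106559410, runs on the opposite strand over 146 exonic bases of ZFP36L2, and it had from 0 to 2 reads per well. The handling of reads shared between related genes is not stated in the sources used here.

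Total counts ranged from 27047358 to 32478887 per well. All 9 kidney epithelial markers checked were detected, with gene means from 1.46 to 2458 CPM (read counts relative to the size of each library). Their summed levels were 4926 to 5488 CPM in control wells and 5191 to 5313 CPM in stretch wells. Of 6 fibroblast markers, COL1A2, COL3A1, DCN and LUM had 0 reads in every well, and the list summed to at most 0.155 CPM in control and 0.0739 CPM in stretch wells. Of 4 leukocyte markers, PTPRC and CD3E had 0 reads in every well. CD68 and CD14 had enough reads to be tested, with a highest gene mean of 6.05 CPM. The leukocyte list summed to 6.41 to 7.31 CPM in control and 5.49 to 6.97 CPM in stretch wells. The 4 endothelial markers summed to 1.03 to 1.73 CPM in control and 0.790 to 1.61 CPM in stretch wells.

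ZFP36 was the member with the fewest reads and the one with the largest difference between groups on the log2 scale. It had 23.3, 26.1, 30.1 and 29.98 CPM in control replicates 1 to 4, and 26.4, 36.5, 34.9 and 33.5 CPM in stretch replicates 1 to 4. Stretch replicates 2, 3 and 4 lay above every control well, whereas stretch replicate 1 lay within the control range, so the groups overlapped. The means were 27.4 ± 3.30 CPM in control and 32.8 ± 4.46 CPM in stretch wells (SD, n = 4 each), from 634 to 1081 reads per well. The stretch well exceeded the control well of the same replicate number in 4 of 4 pairs, by 0.18, 0.48, 0.21 and 0.16 on the log2 scale for replicates 1 to 4. Across all tested genes, 8.45% were higher in all 4 pairs.

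The log2 change of ZFP36 was 0.26 ± 0.11 (SE), with a 95% interval of 0.024 to 0.50, in the edgeR quasi-likelihood test without a block. Its unadjusted p was 0.0333 and its adjusted p 0.999 over 14571 genes (edgeR, Benjamini-Hochberg). Deviations from group means correlated between wells of equal replicate number (0.108 to 0.328 across genes), but wells of unequal number were not compared. With the number as a block the log2 change was 0.26 ± 0.064, with a 95% interval of 0.13 to 0.40. The adjusted p was then 0.0782 in edgeR's test (unadjusted p = 8.3e-04), and ZFP36 stood at rank 155 of the 14571 genes by p. ZFP36 did not pass the threshold of 0.05 in either fit. Without a filter on low counts, and with the block, it passed (edgeR, adjusted p = 0.0031), in a fit that called 448 genes.

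**Figure D1:**
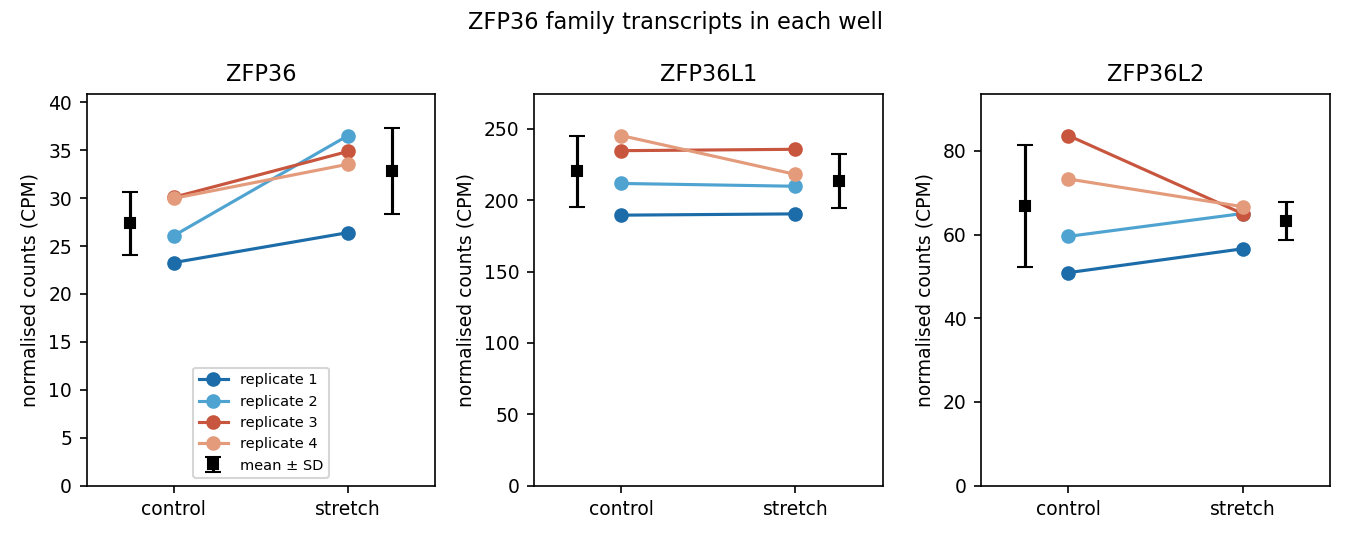
Normalised counts (CPM, axes from 0) of ZFP36, ZFP36L1 and ZFP36L2 in the 4 control and 4 stretch wells, with lines joining equal replicate numbers and black squares giving the mean ± SD. All 4 lines go up for ZFP36, from a mean of 27.4 to 32.8 CPM, while ZFP36L1 and ZFP36L2 show lines in both directions.

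ZFP36L1 was the most abundant member, and its groups differed by less than the spread of wells. It had 189.6, 212, 235 and 245 CPM in control replicates 1 to 4, and 190.5, 209.9, 236 and 218 CPM in stretch replicates 1 to 4. The wells of equal number were close to each other in replicates 1 to 3, and stretch replicate 4 lay below its control. The means were 220.4 ± 24.9 CPM in control and 214 ± 18.8 CPM in stretch wells (SD, n = 4 each), with 2 of 4 pairs higher. The log2 change was -0.046 ± 0.083 without the block (95% interval -0.23 to 0.14) and -0.043 ± 0.040 with it (-0.13 to 0.041). The adjusted p was 0.999 and 0.863 in edgeR's test.

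ZFP36L2 varied more among control wells than either relative. It had 50.9, 59.6, 83.7 and 73.3 CPM in control replicates 1 to 4, and 56.6, 65.02, 64.99 and 66.7 CPM in stretch replicates 1 to 4. Every stretch well fell inside the control range. The coefficient of variation was 21.7% over control wells and 7.19% over stretch wells, a difference that was not tested. The means were 66.8 ± 14.5 CPM in control and 63.3 ± 4.55 CPM in stretch wells (SD, n = 4 each). The log2 change was -0.079 ± 0.14 without the block (95% interval -0.39 to 0.23) and -0.059 ± 0.081 with it (-0.24 to 0.12). The adjusted p was 0.999 and 0.922 in edgeR's test.

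In edgeR without the block, 0 of all tested genes passed the threshold, a share of 0%. With the replicate number as a block 102 passed, a share of 0.700%. Of the 3 members, 0 passed in either fit. At an unadjusted p under 0.05 in edgeR, 1 of the 3 members, ZFP36, passed without the block, where the share over all genes was 3.97%. It also did so with the block, where the share was 8.89%. DESeq2 called 40 genes when no block was used and 145 when the block was added, with 0 of the 3 members among them (DESeq2 adjusted p for ZFP36 of 0.979 and 0.102).

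The members also varied with the replicate number. ZFP36L1 was at 212 CPM or lower in replicates 1 and 2 of both groups and at 218 CPM or higher in replicates 3 and 4. In control wells ZFP36 and ZFP36L2 were also lower in replicates 1 and 2. Within replicates 1 and 2 alone, the log2 change was 0.35 for ZFP36, -0.0046 for ZFP36L1 and 0.14 for ZFP36L2. Within replicates 3 and 4 alone, it was 0.19, -0.076 and -0.25 in the same order. ZFP36 thus had a positive value in both sets of wells, while ZFP36L2 differed in sign between them. The smallest adjusted p among these 6 values was 0.301 (edgeR, ZFP36L2 in replicates 3 and 4, unadjusted p = 0.0039). With a block of 2 levels for these sets in place of the replicate number, ZFP36 had a log2 change of 0.27 and an adjusted p of 0.270 in edgeR's test.

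**Figure D2:**
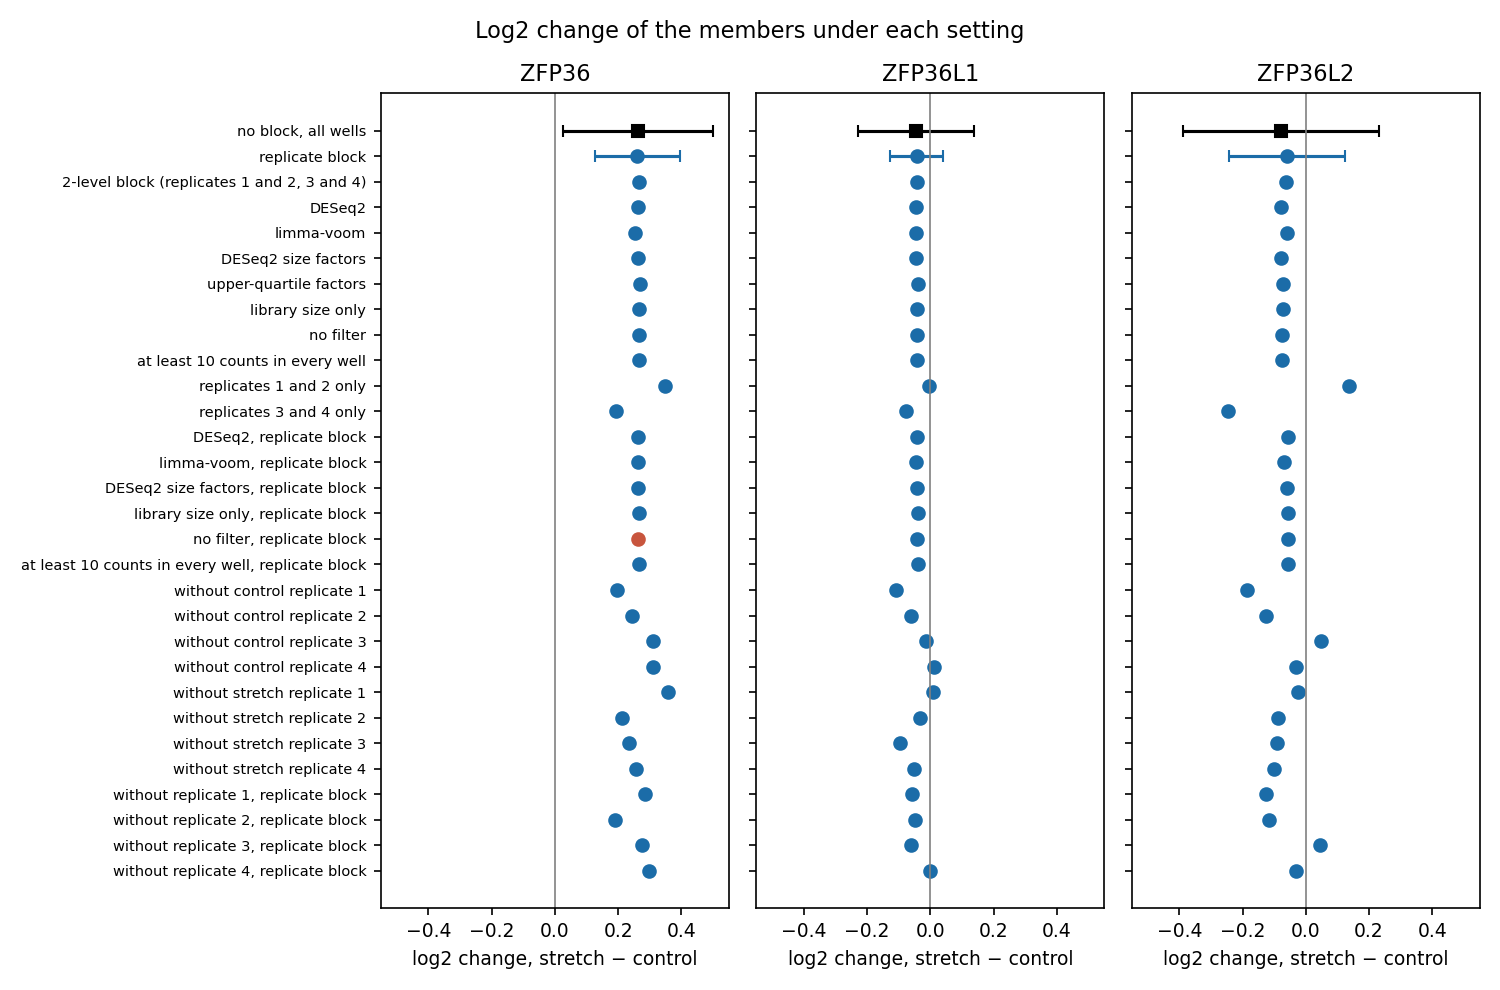
Log2 change from control to stretch of each member under every setting, with bars giving the 95% interval of edgeR without the block (black square) and with the replicate block (blue), and red marking an adjusted p under 0.05. ZFP36 stays between 0.19 and 0.36 with 1 setting past the threshold, while ZFP36L1 and ZFP36L2 are each above 0 in 3 of the 29 alternatives and below it in the rest.

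Levels of different genes were compared per length, as CPM per kilobase of exon. On that scale ZFP36L1 stood far above its relatives, with 70.8 ± 7.99 in control and 68.6 ± 6.04 in stretch wells (SD, n = 4 each). ZFP36 had 19.7 ± 2.38 in control and 23.7 ± 3.21 in stretch wells. ZFP36L2 had 17.8 ± 3.86 in control and 16.8 ± 1.21 in stretch wells. The per-length order in control wells was therefore ZFP36L1, ZFP36, ZFP36L2, but ZFP36 and ZFP36L2 differed by less than their spread there. In stretch wells the lowest ZFP36 value, 19.02, lay above the highest ZFP36L2 value, 17.7. Among all tested genes, ZFP36L1 lay above 90.9% per length in control wells, ZFP36 above 69.7% and ZFP36L2 above 66.97%, as means over 4 wells.

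The summed per-length level of the 3 members was 108 ± 13.9 CPM per kilobase in control and 109 ± 9.75 in stretch wells (SD, n = 4 each), a difference smaller than either SD (two-sided exact permutation p = 0.943 on the log2 scale). ZFP36L1 made up 65.5 ± 1.59% of that sum in control and 62.9 ± 1.64% in stretch wells. ZFP36 made up 18.4, 18.3, 18.2 and 18.01% in control replicates 1 to 4, and 19.97, 23.7, 21.3 and 21.6% in stretch replicates 1 to 4. The ZFP36 share was nearly constant over control wells, and each stretch well lay above all of them. ZFP36L2 made up 16.3 ± 1.67% in control and 15.4 ± 0.564% in stretch wells, with overlap.

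**Figure D3:**
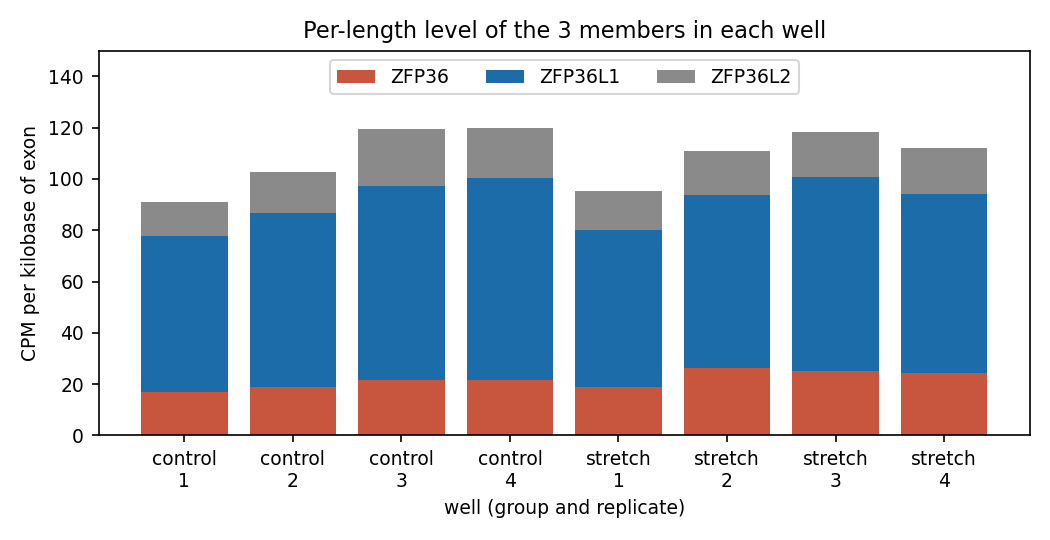
Stacked bars (axis from 0) of the per-length level of ZFP36, ZFP36L1 and ZFP36L2, in CPM per kilobase of exon, in each of the 8 wells. ZFP36L1 forms the largest part in every well, and the ZFP36 part is 16.8 to 21.7 in control and 19.02 to 26.3 in stretch wells.

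Because the 3 transcripts were read in the same wells, their responses could be compared directly as differences in log2 CPM within a well. With all 8 wells, ZFP36 was higher relative to both relatives in stretch than in control wells. Both comparisons share the ZFP36 values and were chosen with earlier results of these data known. The ZFP36 minus ZFP36L1 difference went from -3.01 ± 0.032 in control to -2.71 ± 0.14 in stretch wells (SD, n = 4 each), a shift of 0.30 with no overlap between groups and 4 of 4 pairs higher. The two-sided exact permutation p was 0.0286, the smallest that 70 assignments allow, and 0.0429 adjusted over the 3 pairs of members. The ZFP36 minus ZFP36L2 difference went from -1.27 ± 0.15 to -0.95 ± 0.12, a shift of 0.32, also without overlap and higher in 4 of 4 pairs (exact permutation p = 0.0286, adjusted 0.0429). Leaving out any single well other than stretch replicate 1 ended both calls (exact permutation, adjusted p = 0.0857). The shifts were then 0.24 to 0.32 against ZFP36L1 and 0.25 to 0.36 against ZFP36L2. The groups stayed apart each time, and fewer wells leave fewer assignments, so the lost calls do not show dependence on a single well. The ZFP36 minus ZFP36L2 shift within replicate 1 was 0.028, against 0.36, 0.58 and 0.30 within replicates 2 to 4.

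The ZFP36L1 minus ZFP36L2 difference was 1.74 ± 0.18 in control and 1.75 ± 0.075 in stretch wells (SD, n = 4 each). Its shift of 0.013 was within the spread of wells (exact permutation p = 0.914). An exact sign-flip test over the 4 same-numbered pairs, which uses the pairing, cannot pass the threshold with so few pairs, and it gave both ZFP36 differences an adjusted p of 0.188. The same differences were formed between ZFP36 and each of the other 14570 tested genes. For 6.62% of them, the ZFP36 difference was higher in every stretch well than in any control well, and ZFP36L1 and ZFP36L2 were among these.

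**Figure D4:**
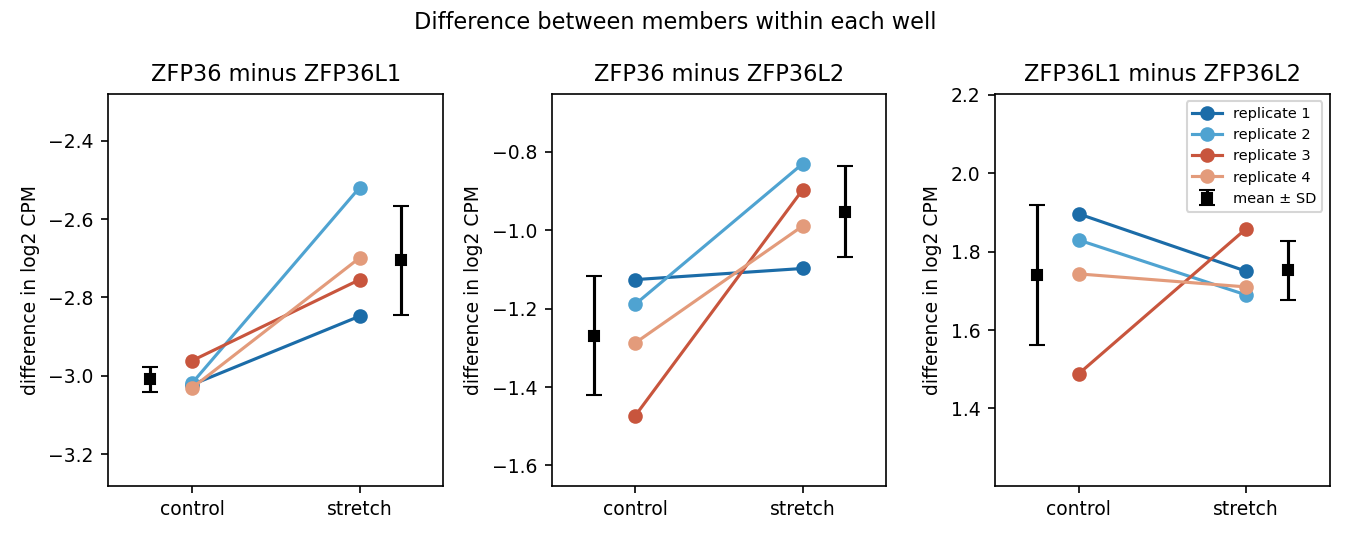
Difference in log2 CPM between each 2 members within a well, by group, with lines joining equal replicate numbers and black squares giving the mean ± SD (each axis spans 1 log2 unit). Both panels with ZFP36 shift upwards without overlap, by 0.30 and 0.32, and the ZFP36L1 minus ZFP36L2 panel shifts by 0.013 with overlap.

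The 5 genes whose log2 CPM over the 8 wells was most like that of ZFP36, among 11061 candidates with at least 5 CPM, were MYC, TNFRSF12A, SPTY2D1, DUSP6 and FOS, with Pearson r from 0.971 to 0.988. MYC and FOS encode growth-factor-induced transcription factors, DUSP6 a phosphatase of ERK and TNFRSF12A the receptor of the cytokine TWEAK. FOS had 62.7, 80.8, 115 and 94.5 CPM in control replicates 1 to 4, and 96.9, 180.4, 153 and 142 CPM in stretch replicates 1 to 4. Like ZFP36, FOS was lowest in replicate 1 of each group and highest after stretch in replicate 2. Of the 5 genes, DUSP6 passed with the block (log2 change 0.52, edgeR, adjusted p = 0.0061), and the other 4 did not. The genes of a well share its library and depth, and the best of so many candidates over 8 wells can reach a high r for any gene.

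For ZFP36L1 the 5 most alike genes were ZBTB7B, LOC102156679, ZBTB34, ZNF263 and MAP3K4, with r from 0.965 to 0.989. For ZFP36L2 they were TRABD, C13H8orf33, LMNB2, PKP3 and EXOSC4, with r from 0.980 to 0.993. None of these genes passed in edgeR with the block, and their log2 changes lay between -0.071 and 0.033. By Spearman's rho in place of Pearson's r, 3 of the 5 genes were shared for ZFP36 and 1 of 5 for each relative. Between members, r over the 8 wells was 0.847 for ZFP36L1 with ZFP36L2, 0.571 for ZFP36 with ZFP36L1 and 0.561 for ZFP36 with ZFP36L2.

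The enzymes that ZFP36 proteins recruit showed no called change. Of 14 genes of the CCR4-NOT, PAN and PARN deadenylases, 0 passed in edgeR with the block, with a median log2 change of -0.0076. CNOT1, the scaffold to which ZFP36 proteins bind, went from 347 ± 5.68 to 331 ± 8.41 CPM (SD, n = 4 each), with every stretch well below every control well. Groups did not overlap, in either direction, for 2.55% of all genes. The blocked fit gave CNOT1 a log2 change of -0.068 ± 0.035 (adjusted p = 0.640 in edgeR), and 2 genes on the other strand overlap it. CNOT6, a catalytic subunit, and CNOT4, a ubiquitin ligase, had log2 changes of -0.11 and -0.088 without passing.

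Of 15 decapping and 5′ to 3′ decay genes, 0 passed, with a median log2 change of -0.043 with the block. DCP1A, a cofactor of the decapping enzyme, had 0.11, EDC4, a decapping scaffold, had -0.071, and LSM4, of the ring that binds deadenylated ends, had -0.059. Of 15 exosome and SKI genes, which act in decay from the 3′ end, 0 passed, with a median of -0.011. The exosome subunit genes EXOSC9, EXOSC5 and EXOSC3 had log2 changes of 0.14, -0.17 and -0.17 with the block.

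Of 18 other RNA-binding regulators of decay, 0 passed, with a median log2 change of -0.010 with the block. TNRC6A, a scaffold of microRNA silencing, had -0.14 and was lower in 4 of 4 pairs (edgeR, adjusted p = 0.245). PUM2, the gene of a Pumilio repressor, had -0.10. Of 21 kinases, phosphatase subunits and binding partners of ZFP36 proteins, 0 passed, with a median of -0.0077. MAPKAPK2 had 71.2 ± 5.50 CPM in control and 66.9 ± 1.78 CPM in stretch wells (SD, n = 4 each), and its log2 change in the blocked fit was -0.087 (adjusted p = 0.694 in edgeR). YWHAG, a 14-3-3 protein gene, had 0.071 and GIGYF1, of a translational repressor complex, had -0.11. Over these 5 lists, 0 of 83 genes passed in edgeR with or without the block, and 4 had an unadjusted p under 0.05 with it, where the share over all genes was 8.89%. The median over all tested genes was -0.0022 with the block.

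A further list held mRNAs known as targets of the family, and it was compiled with earlier results of these data known. The shares below therefore describe the listed genes and cannot show how targets of the family respond as a set. Of 45 listed, 43 were in the table and 35 had enough reads to be tested. TNF, IL2, IL3 and IL10 had 0 reads in every well, IL6 had at most 1 and CXCL8 at most 2. Of the 35, 33 had a log2 change above 0 with the block, where 48.8% of all tested genes did. Their median was 0.32 with the block and 0.35 without, against -0.0022 and -0.0032 over all tested genes. In 23 of the 35 all 4 pairs were higher, against 8.45% of all genes, and in 7 every stretch well lay above every control well, against 1.30%. In edgeR with the block, 6 of the 35 passed, all higher, against 0.528% of all genes. Without the block 0 passed, and 14 had an unadjusted p under 0.05 in edgeR, against 3.97% of all genes. Many of these targets are themselves immediate-early genes.

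Those that passed with the block included VEGFA, EGR1, ICAM1, LATS2 and LIF. VEGFA, the vascular growth factor, had 17.8, 19.1, 27.4 and 20.2 CPM in control replicates 1 to 4, and 24.6, 30.3, 36.2 and 30.6 CPM in stretch replicates 1 to 4. Its groups overlapped through control replicate 3, and the blocked fit put its rise at 0.53 ± 0.064 (adjusted p = 6.1e-04 in edgeR).

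In the same fit EGR1, an immediate-early transcription factor, rose by 0.42 ± 0.050 without overlap, from 223 ± 23.7 to 299 ± 43.9 CPM (adjusted p = 0.0017 in edgeR). ICAM1, an adhesion molecule induced in inflammation, rose by 0.41 ± 0.057 with overlapping groups, from 57.8 ± 13.5 to 76.1 ± 12.8 CPM (adjusted p = 0.0020 in edgeR). A gene on the other strand overlaps ICAM1. LATS2, a kinase of the Hippo pathway, rose by 0.31 ± 0.051, also with overlapping groups, from 39.03 ± 3.72 to 48.6 ± 6.66 CPM (adjusted p = 0.0052 in edgeR). The cytokine LIF rose by 0.73 ± 0.14 without overlap, from 4.12 ± 0.659 to 6.85 ± 1.11 CPM (adjusted p = 0.0147 in edgeR). With the block of 2 levels, EGR1 and ICAM1 did not pass (edgeR, adjusted p = 0.0668 and 0.1253), and VEGFA, LATS2 and LIF did. The change of ZFP36, 0.26 with the block, lay below the median of these 35 mRNAs.

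**Figure D5:**
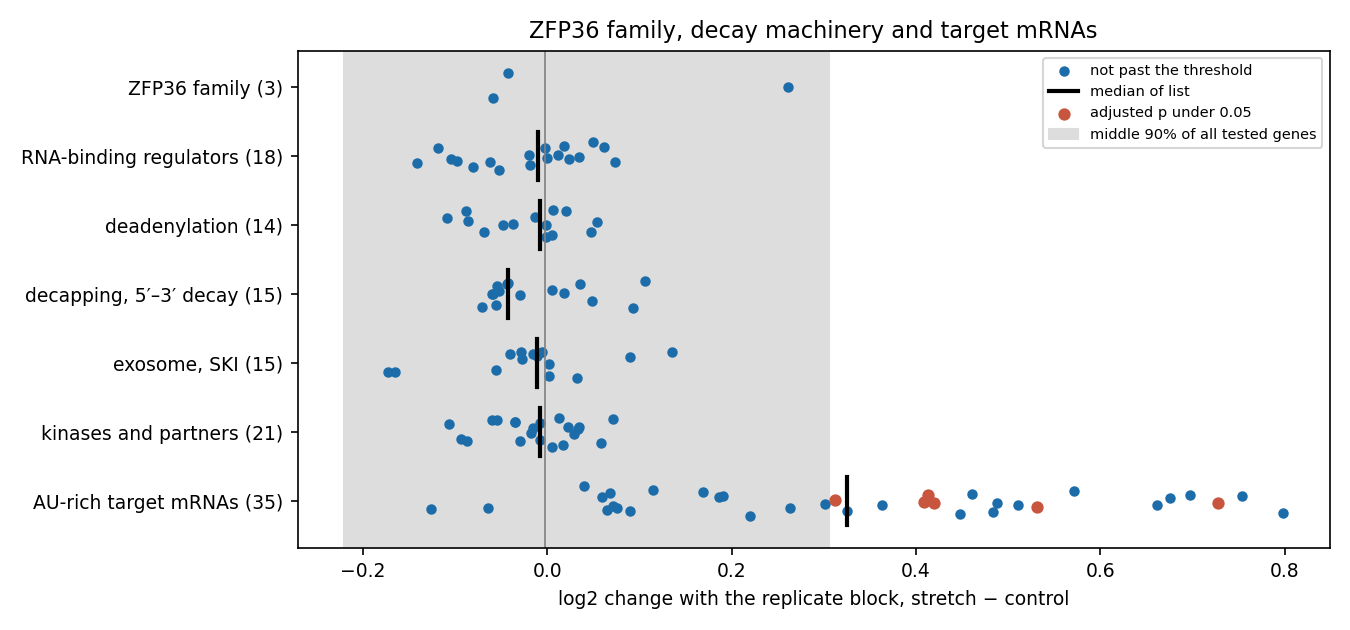
Log2 change with the replicate block of the 3 members and of every tested gene of the 6 lists (number of genes in parentheses), with black bars at list medians, red points past the threshold and grey shading over the middle 90% of all tested genes. The 5 lists of decay factors and partners centre near 0, and the target mRNAs have a median of 0.32 with 6 genes past the threshold. All 6 lists were chosen with earlier results of these data known.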

How the data were processed

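The deposited values were raw read counts per gene over exons for 8 wells. Per the submitters' processing notes, FastQC 0.11.8, Trim Galore 0.6.5, STAR 2.7.3a and featureCounts of Subread were used. Strand setting and multi-mapping reads are not given in the sources used here. Libraries were polyA-selected and strand-specific, per the labels. The exonic length per gene was taken from the deposited table. Gene symbols matched the RefSeq table of UU_Cfam_GSD_1.0 for 37291 of 37952 genes, all 37291 with identical coordinates. The listed SKI complex genes SKIC2, SKIC3 and SKIC8 were matched by their older names SKIV2L, TTC37 and WDR61. No sequences were used here.

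Counts were tested in R 4.3.3 with edgeR 4.0.16 (robust glmQLFit, glmQLFTest, two-sided), TMM factors and filterByExpr (minimum count 10, total 15), which left 14571 genes, with Benjamini-Hochberg adjustment and a threshold of 0.05. The standard error is the log2 change divided by the root of F. Log2 CPM used a prior count of 2. Columns of other samples numbered 0. No 2 wells of a group agreed within sampling noise (chi-square per degree of freedom from 5.14 to 23.6), so all were kept. The model had no block. Same-numbered wells correlated in their deviations from group means (0.328, 0.108, 0.182 and 0.178 across genes for replicates 1 to 4), so the fit with the number as a block is given beside it. The pairing comes from this check and not from the labels. Wells of unequal number were not compared. The check therefore cannot tell pairing apart from a difference of replicates 1 and 2 from replicates 3 and 4. Alternatives included DESeq2 1.42.0 and limma-voom (limma 3.58.1). The scripts were tested on simulated data. Figures used matplotlib 3.10.9.

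The members, the 6 gene lists and the tests were chosen with earlier results of these data known. The rule named the 3 members, each listed gene past the threshold in either fit or else the 3 with the smallest p with the block, and the 5 genes most correlated with each member. Of the genes so named, 2 are not reported here.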

Additional observations from a re-analysis of the deposited data

Results flagged for a closer look

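Among 48 groups of 4 wells examined, for the 3 members and the named listed genes, 3 held a single well that stood apart from its group (Dixon's test at the 95% level). Chance alone would flag about 2.4. For ZFP36L2, stretch replicate 1 had 56.6 CPM while the other stretch wells had 64.99 to 66.7 CPM. For EXOSC5, control replicate 2 had 9.26 CPM against 10.9 to 11.2 CPM, and stretch replicate 2 had 11.3 CPM against 8.75 to 9.03 CPM. EXOSC5 was therefore lower after stretch in replicates 1, 3 and 4 and higher in replicate 2.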

How the results depend on the processing

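ZFP36 had a positive log2 change in all 29 alternatives, from 0.19 to 0.36, and passed the threshold in 1, the replicate block without a filter (0.26, edgeR, adjusted p = 0.0031, with 1 member called). Omitting a pair with the block moved its adjusted p between 0.0532 and 0.426 in edgeR's test. ZFP36L1 ranged from -0.11 to 0.012 when single wells were left out and from -0.061 to 4.4e-04 when pairs were left out with the replicate block. ZFP36L2 ranged from -0.19 to 0.047 and from -0.13 to 0.044 likewise, and was 0.14 in replicates 1 and 2 only. It turned positive without control replicate 3 and without pair 3. Neither relative passed in any of the 29 alternatives.

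The ZFP36 minus ZFP36L1 shift was 0.24 to 0.35 and the ZFP36 minus ZFP36L2 shift 0.25 to 0.36 when single wells were left out. Adjusted exact permutation p-values were then 0.0857, except 0.0429 without stretch replicate 1. The groups stayed free of overlap, and fewer wells leave the test fewer assignments. Over same-numbered pairs the shifts were 0.30 and 0.32 (exact sign-flip test, adjusted p = 0.188). The ZFP36L1 minus ZFP36L2 shift ranged from -0.071 to 0.065. Scaling and prior count changed none of these 3 calls.

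Genes called in edgeR, 0 without the block, numbered 102 with the replicate block, 58 with the block of 2 levels, 11 without a filter, 51 in replicates 1 and 2 only and 25 in replicates 3 and 4 only, with 6, 4, 0, 7 and 1 listed genes among them. DESeq2 called 40 genes without the block (4 listed) and 145 with it (11 listed). With the replicate block, limma-voom called 100, DESeq2 size factors 105, library size only 111 and at least 10 counts in every well 97, each with 6 listed, and no filter called 448 with 21 listed. Leaving out single wells gave 0 to 12 genes (0 to 1 listed), and leaving out pairs 1 to 4 with the block gave 43, 67, 186 and 74 (4 to 9 listed). The causes were not tested.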
